A study of Mus musculus with 3 samples.

Results

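The genes of Notch signalling, the basic helix-loop-helix (bHLH) factors tied to it, the Id proteins and E proteins that dimerise with bHLH factors, and the Sox factors were followed in the normal mouse retina at postnatal day 7. Members were all probe sets annotated to 1 gene whose symbol belongs to these families. There were 67 such probe sets for 50 genes, of 12422 probe sets and 8251 genes in the series once control probe sets had been left out. No measured value entered the choice. Jag1, Sox8, Sox9 and the Olig genes were not among them and were not analysed here.

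RNA came from 3 samples of neural retina, each pooled from 3 to 4 mice and hybridised to an Affymetrix MG-U74Av2 array, where each gene has at least 1 set of probes. All 3 pools were wild type at postnatal day 7. The donors had a mixed 129/SvEv and C57BL/6 background, were littermates of Rp1-/- mice and gave their retinas between 1 and 2 pm. The pools formed 1 group, so that no conditions were compared, and they are called pools 1, 2 and 3 as names alone. The labels say no more of the replicates than that several animals were pooled in each, so a p-value here speaks of the spread among these samples, which may in part be technical.

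Notch receptors are cleaved when a Delta or Jagged ligand on a neighbouring cell binds them, and the freed intracellular part joins the DNA-binding protein RBPJ to switch on Hes and Hey genes. These encode bHLH repressors, which hold down proneural bHLH genes and so keep a cell from becoming a neuron. In the retina this circuit holds progenitors in reserve and favours Müller glia, the last cells to form after birth along with rods and bipolar cells. Sox factors bind DNA through an HMG box and mark progenitors, glia, young neurons or vessels according to their subgroup.

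Hes genes are the pathway's output, so the letters of their promoters are shown. Of the 50 genes, 37 had a promoter in the RefSeq table (GRCm38.p6), and the 250 bases before each start with a promoter there were searched. The core letters bound by RBPJ, TGGGAA on either strand, are in capitals. Hes5, a classical Notch target, is shown with its pair of cores, and Hes6, a relative that Notch signalling does not induce, with the window before its outermost annotated start. The Hes5 window lies at chr4:154960673-154960922 on the plus strand, and that of Hes6 at chr1:91414039-91414288 on the minus strand. For Hes5 a start further upstream is annotated too, but it had no promoter in the table and was not searched.
Hes5: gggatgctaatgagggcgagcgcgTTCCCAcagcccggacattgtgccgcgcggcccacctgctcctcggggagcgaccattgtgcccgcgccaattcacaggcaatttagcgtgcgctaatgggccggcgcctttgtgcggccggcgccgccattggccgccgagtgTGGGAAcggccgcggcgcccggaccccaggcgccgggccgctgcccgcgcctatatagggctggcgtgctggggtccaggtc
Hes6: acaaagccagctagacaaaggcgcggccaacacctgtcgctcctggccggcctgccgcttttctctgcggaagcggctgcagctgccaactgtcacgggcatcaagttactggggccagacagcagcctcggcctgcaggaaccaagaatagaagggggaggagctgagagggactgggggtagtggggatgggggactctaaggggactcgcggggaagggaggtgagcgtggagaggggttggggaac

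The Hes5 window held 2 RBPJ cores, which begin at -226 and -82 from the annotated start and face opposite ways (TTCCCA, then TGGGAA). The Hes6 window held none, nor did the window before its inner start. Among 51 windows of the 37 member genes, 11 held at least 1 core (21.6%), the same share as the 21.6% of all 32851 windows. At least 2 cores were present in 4 member windows, those of Hes5, Lfng, Rbpj and Sox15 (7.84%), against 2.77% of all windows. The E box CANNTG, the usual letters under bHLH dimers, was in 64.7% of member windows and 66.2% of all windows. The N box CACNAG, which Hes repressors prefer, was in 31.4% and 36.7%. At least 2 E boxes were in 29.4% of member windows and 31.8% of all windows, and at least 2 N boxes in 7.84% and 8.18%. No difference between these shares was tested. A match is a description of the letters and not of binding.

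Intensities are given after each array had been scaled to a common median, with values under 42.2 raised to that floor, and each gene is read by 1 chosen probe set, that without a letter suffix or else the brightest. Signal was judged against a background bar, the 90th percentile on each array of 54 genes known from other organs, among them liver, pancreas and testis. The bar stood at a scaled intensity of 346, 280 and 338 in pools 1, 2 and 3. Of the 50 member genes 20 passed it in all 3 pools (40%), close to the 42.6% of all 8251 genes. Another 9 genes passed in some pools, and 21 in none. A gene under the bar may still be expressed, and levels of different genes are not compared, since each probe set has its own brightness. In these tissue samples fewer cells of a type and less RNA per cell cannot be told apart.

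**Figure D1:**
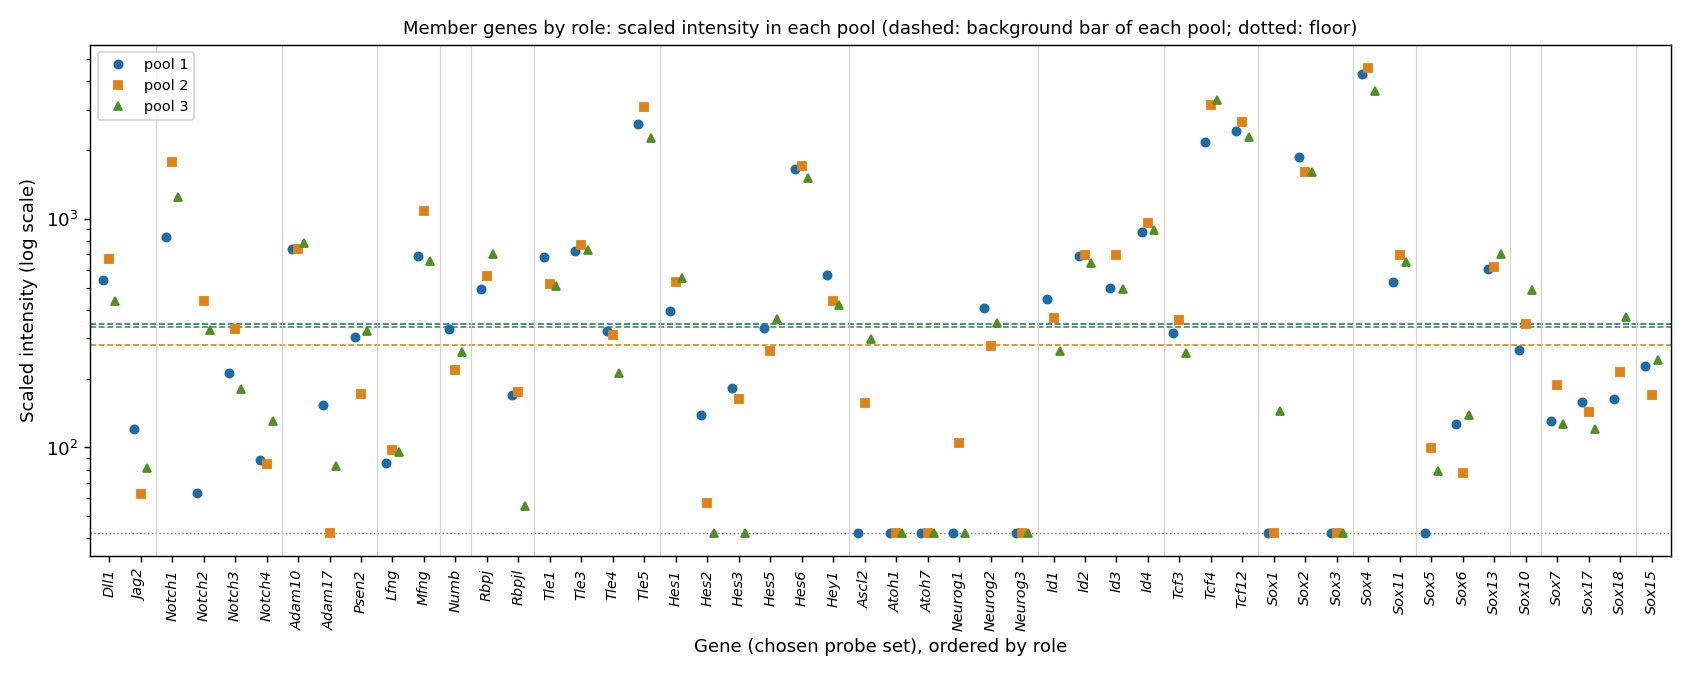
Scaled intensity (log axis) of the chosen probe set of each of the 50 member genes in pools 1, 2 and 3 (points), ordered by role, with each pool's background bar (dashed: 346, 280 and 338) and the floor of 42.2 (dotted). The 20 genes whose 3 points all lie above the bar include Sox4, Sox2, Tcf12, Tcf4, Tle5 and Hes6, whereas none of the 6 proneural genes do.

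Markers of amacrine cells, rods and Müller glia were mostly above the bar. All 4 amacrine genes, 4 of 5 rod genes and 5 of 7 Müller glia genes measured were above the bar in all pools. Of 7 genes of progenitors and cycling cells 3 were (Ccnd1, Pcna and Ccnb2). Sfrp2, at 374, 444 and 300, passed in pools 1 and 2, and Fgf15, Mki67 and Top2a passed in none. Markers of lens fibres, a tissue next to the retina, were above it for 4 of 6 genes. Their summed intensity was 20313, 91449 and 96691, so that pool 1 carried the least lens signal. The rod and Müller glia sums were lowest in pool 1 as well, at 25305, 31958 and 27402 and at 7552, 9056 and 7822. Those of amacrine genes and of progenitor and cycling genes were highest there, at 7779, 7598 and 7404 and at 4729, 4260 and 3866. Members whose chosen probe sets were lowest in pool 1 too included Notch1, Notch2, Hes1, Rbpj, Tcf4, Sox10, Sox11 and Sox18. Ascl2 and Sox5, not above the bar in any pool, were lowest there as well. Of the 36 member probe sets tested for spread, 14 were lowest in pool 1, beside 37.6% of all probe sets tested. The fifth rod gene, Gnat1, the rod transducin gene, was also lowest in pool 1, at 219, 699 and 680. Its limma adjusted p for excess spread, tested as described at the end, was 0.0162. The part of lens tissue or of any cell type in the values of these genes was not tested.

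Of the signalling apparatus 8 of 18 genes were above the bar in all pools: a ligand, a receptor, a sheddase, a Fringe enzyme, RBPJ and 3 genes of the Groucho family. Dll1, a Delta ligand, was at 540, 666 and 435 in pools 1, 2 and 3 (547 ± 116, mean ± SD, n = 3 pools, as for all such values). Pool 2 was the highest and pool 3 the lowest, and all lay above their bars. The further Dll1 probe set was at the floor in all pools, and with the mean of both probe sets Dll1 was no longer above the bar in all pools. Jag2, the Jagged ligand measured, was below the bar throughout, at 121, 62.7 and 81.3.

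Among the 4 receptors only Notch1 was above the bar in every pool. Its chosen probe set was at 830, 1773 and 1243 (1282 ± 473), with pool 1 lowest and pool 2 highest. The further Notch1 probe set was at 605, 420 and 374, also above the bar everywhere, but with pool 1 highest. The 2 readings of Notch1 therefore put the pools in different orders.

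Notch2, which in the eye acts in lens and ciliary epithelium as well as retina, gave the widest range of any member that reached the bar at all. Its chosen probe set was at 63.3, 437 and 325, above the bar in pool 2 alone. The other Notch2 probe set stayed at 145, 183 and 151, below the bar in every pool. Both were lowest in pool 1, but the second spanned 1.26-fold against 6.90-fold for the first. The lens genes were lowest in pool 1 too (Cryaa at 7413, 38200 and 39990), as were the summed rod and Müller glia markers. The part of any of these tissues or cells in the Notch2 values was not tested. Notch3, a receptor of vascular mural cells and of progenitors, passed the bar in pool 2 alone at 213, 331 and 181. Notch4, the endothelial receptor, was below it in all pools by both probe sets, between 56.2 and 152.

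The proteases that free the receptor were represented by Adam10, which makes the outer cut. It was at 737, 738 and 783 (753 ± 26.4), a range of 1.06-fold, and its further probe set was at 514, 592 and 500. Adam17, a related sheddase, ran from the floor of 42.2 to 153, below the bar. Psen2, a catalytic subunit of gamma-secretase, which makes the inner cut, was below it as well, at 305, 171 and 323. The only Psen2 probe set carries a letter suffix.

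Fringe enzymes add sugars to Notch and tune which ligand it answers. Mfng was above the bar at 687, 1080 and 657 (808 ± 236), with pool 2 the highest. Lfng was not, at 85.6, 97.3 and 95.6. Numb, an inhibitor of Notch that is passed unequally to daughter cells, was below the bar in all pools by its chosen probe set, at 330, 218 and 260.

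In the nucleus Rbpj, the DNA-binding partner of cleaved Notch, was at 491, 562 and 699 (584 ± 106). Pool 3 was highest, and all 3 were above their bars. Rbpjl, a paralog of other tissues, was below the bar at 170, 174 and 55.6.

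Of the Groucho family, whose long members are corepressors that Hes proteins recruit through their last residues, 3 of 4 genes were above the bar. Tle1 was at 684, 520 and 510 (571 ± 97.7), and Tle3 at 723, 772 and 731 (742 ± 26.0). Tle5, the short member that lacks the repressor domains of the others, was at 2586, 3088 and 2262 (2646 ± 416). Tle4 passed in pool 2 alone, at 324, 312 and 212. The family thus had signal in all pools apart from Tle4.

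Of the Hes and Hey repressors 3 of 6 genes were above the bar. Hes1, the Notch target shared by progenitors and Müller glia, was at 395, 531 and 550 (492 ± 84.8), lowest in pool 1. Hey1 was at 566, 438 and 420 (475 ± 79.4), highest in pool 1. Hes1 and Hey1, both targets of the pathway, thus had their extremes in pool 1 on opposite sides.

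Hes6, which opposes Hes1 and accompanies neuronal differentiation, was at 1644, 1695 and 1515 (1618 ± 92.9), a range of 1.12-fold. Hes5, whose promoter with paired RBPJ cores is printed above, was at 332, 263 and 365 (320 ± 52.0). It passed the bar in pool 3 alone and lay just under it in pools 1 and 2. Its further probe set was between the floor and 64.7. With the bar at the 75th percentile Hes5 passed in all 3 pools. With a bar from the liver, pancreas, pituitary and testis genes alone, chosen after the data were seen, the bar stood at 356, 310 and 408 and Hes5 passed in none, so its call depends on the bar. Hes2 and Hes3 were below it throughout, from the floor to 182.

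None of the 6 proneural genes was above the bar in all pools, and Neurog2 came nearest. It was at 407, 278 and 350, above the bar in pools 1 and 3 and just below it in pool 2. With the bar at the 75th percentile, with the mean of all probe sets and without pool 2, it passed in every pool that was used. Neurog2 is a proneural factor of retinal progenitors. Atoh7, which is needed for ganglion cells, the earliest retinal neurons, was at the floor in all pools, as were Atoh1, the factor of hair cells and cerebellar granule cells, and Neurog3, the factor of pancreatic endocrine cells. Neurog1 was at the floor except for 104 in pool 2. Ascl2, a factor of placenta and intestine, was between the floor and 298.

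Id proteins have the helix-loop-helix but no basic region, so they bind E proteins and keep them off DNA, and 3 of the 4 were above the bar. Id2 was at 689, 694 and 643 (675 ± 28.1). Id3 was at 501, 694 and 493 (562 ± 114), highest in pool 2. Id4 was at 873, 961 and 894 (909 ± 45.9). Id2 and Id4 were among the steadiest members, with ranges of 1.08-fold and 1.10-fold. Id1 was at 444, 369 and 264, above the bar in pools 1 and 2 and below it in pool 3.

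E proteins are the common partners of tissue-specific bHLH factors. Tcf12, which encodes HEB, was at 2419, 2649 and 2289 (2452 ± 182). Tcf4, which encodes E2-2, was at 2159, 3155 and 3315 (2876 ± 626), lowest in pool 1. Tcf3, which encodes E2A, was at 315, 360 and 259 and passed in pool 2 alone. Thus 2 of 3 E proteins were above the bar in every pool, Tcf12 by a single probe set that carries a letter suffix.

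Sox genes had 4 of 13 members above the bar, from the SoxB1, SoxC and SoxD subgroups. The SoxB1 gene Sox2, which keeps progenitors and persists in Müller glia and some amacrine cells, was at 1862, 1596 and 1602 (1687 ± 152). It was read by a single probe set, whose type was designed with loosened selection rules. Sox1, a lens fibre and neural gene, was at the floor in pools 1 and 2 and at 144 in pool 3, below the bar everywhere. The lens sum was highest in pool 3 as well, and the part of lens tissue in the Sox1 value was not tested.

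Sox3 had 4 probe sets that disagreed. The chosen one was at the floor in all pools, whereas another, designed with loosened rules, was at 284, 345 and 543 and above the bar in pools 2 and 3. The other two lay below the bar, with values up to 193. Sox3 therefore has no single reading here.

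The SoxC genes, factors of newly born neurons, were both above the bar. Sox4 was at 4306, 4573 and 3636 (4172 ± 482), and its further probe set at 2962, 4355 and 3192. Sox11 was at 529, 695 and 646 (623 ± 85.4), lowest in pool 1. Its further probe set, of a type that can be shared within a gene family, was at 266, 378 and 409 and below the bar in pool 1. For Sox11 both probe sets were lowest in pool 1.

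In the SoxD subgroup Sox13 was at 605, 615 and 702 (640 ± 53.3). Sox5 and Sox6 were below the bar in all pools, from the floor to 139. Sox15, a SoxG gene of muscle and placenta, was below it as well, at 228, 169 and 240.

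Sox10, the SoxE gene of oligodendrocytes and neural crest glia, was at 267, 346 and 487, above the bar in pools 2 and 3. Its further probe set was near the floor. Of 5 oligodendrocyte genes measured only Mbp was above the bar in all pools, Mog, Mag and Cnp were at the floor in all of them, and the summed intensity was 625, 615 and 607. Sox10 was highest in pool 3, and the part of oligodendrocytes in the Sox10 value was not tested.

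The SoxF genes Sox7, Sox17 and Sox18 act in vessels, and none was above the bar in all pools. Sox18 reached 372 in pool 3 by a probe set that may be shared within its family, and was at 162 and 213 in the other pools. Its further probe set was at 106, 264 and 193. The chosen probe sets of Sox7 and Sox17 were between 120 and 187. Endothelial markers were above the bar for 2 of 8 genes, Kdr and Eng, while Flt1, Tek, Tie1 and Cdh5 were not in any pool. Their summed intensity was 2798, 2682 and 2409, and the part of vessels in the Sox18 value was not tested.

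Probe sets of one gene did not always fall on the same side of the bar. Of the 15 genes with more than 1 probe set, Dll1 and Sox11 had 1 that passed the bar in all pools and 1 that did not (13.3%). Over all 2073 genes with more than 1 probe set, 859 did (41.4%). Among the 5 genes with 2 probe sets bright enough for the test of spread, Sox11 alone had its lowest value in the same pool by both. Over all 608 such genes the lowest pool was the same for 232 (38.2%). The members' count was also 1 without scaling and 1 after quantile normalisation.

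**Figure D2:**
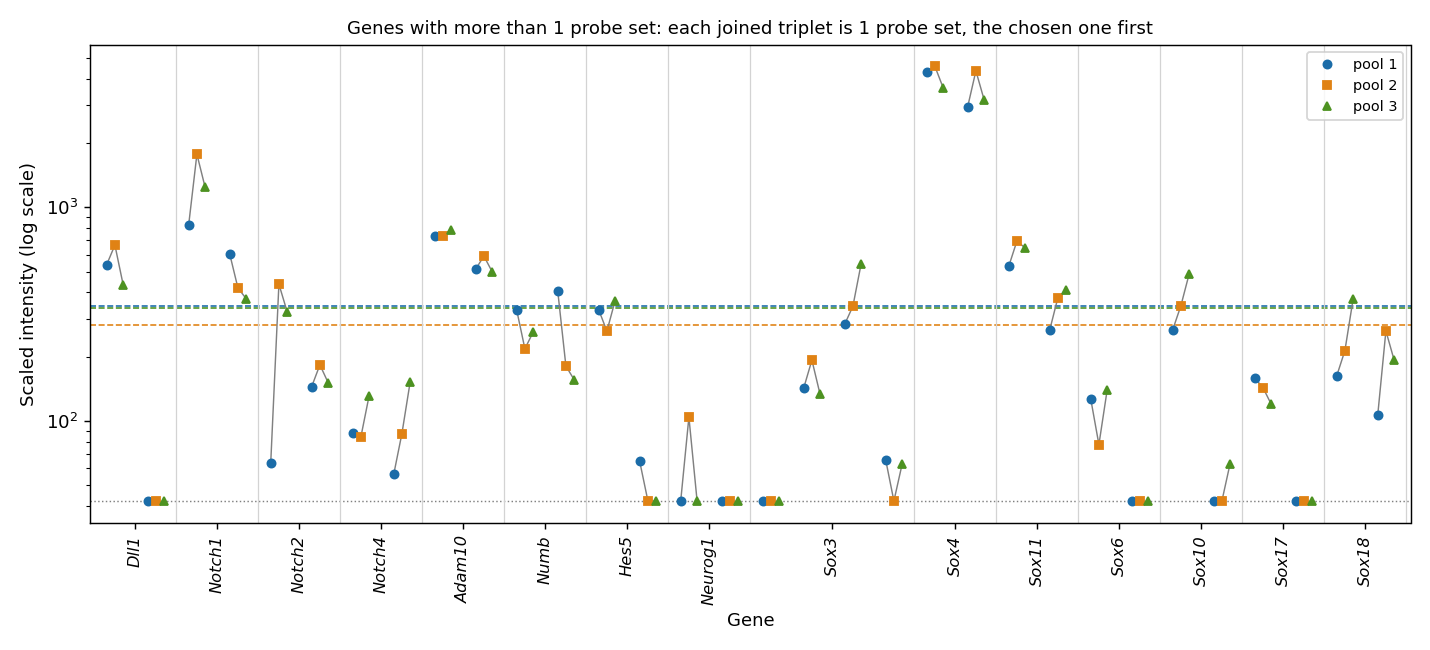
Scaled intensity (log axis) in pools 1, 2 and 3 for the 15 member genes with more than 1 probe set; each joined triplet is 1 probe set, the chosen one first, with bars (dashed) and floor (dotted) as before. The chosen probe set of Notch2 drops to 63.3 in pool 1 while the other stays between 145 and 183, and the 2 probe sets of Notch1 run in opposite directions from pool 1.

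The question left to a single group was whether any member varied more between pools than probe sets of its brightness do. It was tested with limma on 6211 probe sets, the brighter 50%, of which 83 (1.34%) had excess spread at an adjusted p below 0.05. That count was 6 without scaling, 6 after quantile normalisation, 38 without the robust option and 0 when dim probe sets were kept. Of the 67 member probe sets 36, from 31 genes, were bright enough. None of the 36 was called, and their limma adjusted p ran from 0.571 to 0.999. At an unadjusted p below 0.05 there were 2 (5.56%), against 420 of all (6.76%). Data were also simulated with normal noise at the SD that limma fitted for each brightness, and with no further variation in spread between probe sets. There the test found 7.46% of the changes by 2-fold in 1 pool, 77.5% of those by 4-fold and 95.5% of those by 8-fold. Most shifts near 2-fold would go undetected, and the rates apply to noise of that kind alone.

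The 2 unadjusted results were in 1 probe set each of the receptor Notch1 and of Numb, an inhibitor of Notch. The other probe set of each gene had an unadjusted limma p of 0.282 (Notch1) and 0.547 (Numb). The chosen Notch1 probe set spanned 2.14-fold (SD 0.55 on the log2 scale, limma adjusted p = 0.571). The further Numb probe set, at 407, 181 and 156, spanned 2.61-fold (limma adjusted p = 0.698), and its values in pools 2 and 3 were below the bar. Neither passed an adjusted p of 0.05, and neither had an unadjusted p below 0.05 without scaling, after quantile normalisation or when dim probe sets were kept. Other settings left it below 0.05 for 1 or both. Without pool 3 the unadjusted limma p was 0.0083 (Notch1) and 0.0205 (Numb), and without pool 2 0.128 and 0.0441. Without pool 1 it was 0.245 for Notch1, and Numb was not tested. Without the robust option it was 0.0367 and 0.0587, and with 1 prior variance for all brightness levels 0.0535 and 0.0059. The adjusted p stayed above 0.05 in all of these. The chosen Notch2 probe set was not tested, since its mean log2 value of 7.70 lay under the limit of 7.76. With a pseudocount in place of the floor it was tested and called (limma adjusted p = 0.0066). Its adjusted p was 0.266 when dim probe sets were kept and 0.983 without pool 1.

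**Figure D3:**
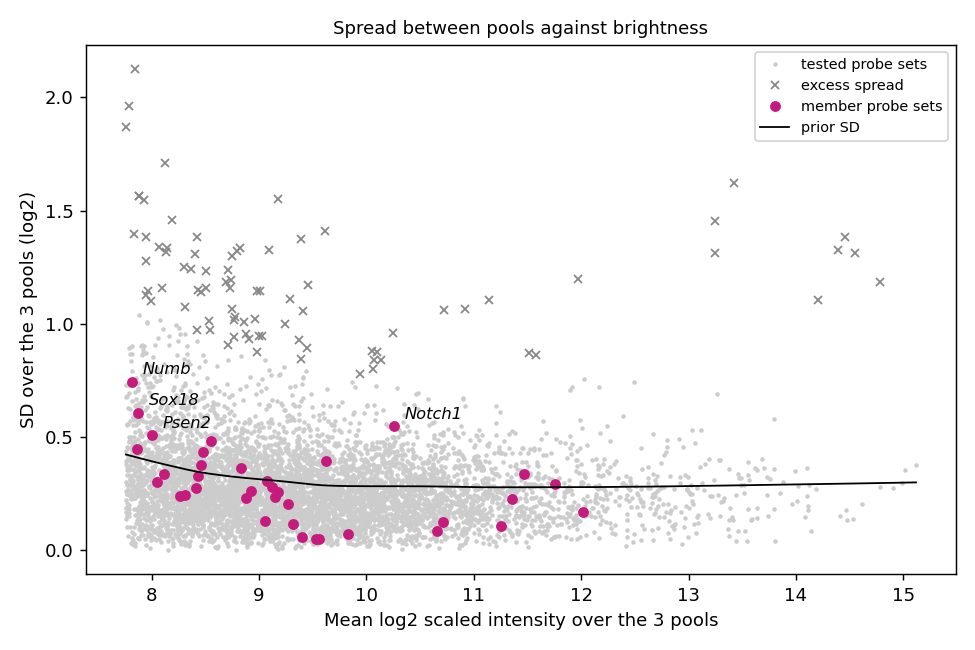
SD over the 3 pools (log2) against mean log2 scaled intensity for the 6211 probe sets tested (grey points), the 83 with excess spread (crosses), the 36 member probe sets (large points) and the prior SD that limma estimated (line). The members lie among the other probe sets of their brightness, and none is among the crosses.

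The members tested had a median SD of 0.27 on the log2 scale, beside 0.26 for all tested probe sets. A range above 2-fold was seen for 3 of the 36 (8.33%), beside 8.63% of all, namely the probe sets of Notch1, Numb and Sox18 just described. Relative to its own mean a gene above the bar deviated, at the median of the 20 members, by -0.03, 0.10 and -0.07 on the log2 scale in pools 1, 2 and 3, beside -0.04, 0.13 and -0.09 over all 3512 genes above it. That order depended on scaling. Without it pool 2 moved by -0.12 at the median probe set, and the members' deviations were 0.02, -0.02 and -0.01, with pool 2 lowest in place of highest. After quantile normalisation they were -0.01, -0.04 and 0.0015, with pool 2 lowest as well. The pools named above as highest or lowest for a member were the same with scaling, without scaling and after quantile normalisation.

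Genes of the same pathway outside these families were read from a list of 37, of which 20 were measured and 14 were above the bar in all pools (70%, beside 42.6% of all genes). The list was chosen with earlier results of these data known, so its share is a description alone and was not tested. None of the 19 probe sets of the list that were tested had excess spread. The gamma-secretase subunit genes Aph1a and Psenen were at 359, 441 and 436 and at 723, 733 and 695. Rfng, the third Fringe, was at 1276, 1615 and 1282. The Deltex genes Dtx1 and Dtx2, regulators of the Notch intracellular part, were at 776, 1234 and 1303 and at 381, 524 and 349. Furin, which cleaves the receptor on its way to the surface, was at 1234, 974 and 1137. The other members above the bar were Itch, Ctbp1, Ctbp2, Hdac1, Hdac2, Kat2b, Crebbp and Dvl1. Chosen after its values were seen, Snw1, a cofactor of RBPJ, was at 127, 366 and 387, above the bar in pools 2 and 3 and, like Notch2, lowest in pool 1.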

How the data were processed

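The authors' deposited values were 1 intensity per probe set and array on a linear scale, from 0.1 to 55245.8. Trimmed by 2% at each end, the arrays had means of 500.2, 500.3 and 500.2, so the authors had scaled them. Software and background correction: not given in the sources used here. Precision was limited by the number of arrays.

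Symbols came from the platform annotation, with gene IDs looked up in a RefSeq table (10817 of 10833 probe sets with 1 gene). Of the others 396 had several genes and 1193 were unnamed. Each array was scaled to the mean of the 3 array medians, floored at the 20th percentile (42.2) and put on the log2 scale. A gene's chosen probe set was one without a letter suffix before any other, then the brightest. The unrelated tissue list had 60 genes, 54 measured, of which Cel, Lhb and Hp passed the bar in all pools.

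Excess spread was the variance of a probe set over the 3 arrays against the prior of squeezeVar (limma 3.58.1, R 4.3.3; robust, mean level as covariate, highest prior degrees of freedom, 279), with Benjamini-Hochberg adjustment over all 6211 probe sets. It was tested on data simulated with noise at the prior SD (10 runs, 0.621% false calls). Values in each pool were given for every member gene above the bar, and values or ranges for other genes and further probe sets (those of Sox17, Sox6 and Neurog1 were at the floor in all pools); of the pathway list and the list of other bHLH genes, the earliest 6 above the bar in list order. Members, lists and tests were chosen with earlier results of these data known. Alternatives are given in the closing section.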

Additional observations from a re-analysis of the deposited data

How the results depend on the processing

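The count of 20 member genes above the bar was 31 with the bar at the 75th percentile (57.6% of all genes then passed), the genes added being Hes5, Id1, Neurog2, Notch3, Numb, Psen2, Sox10, Sox15, Sox18, Tcf3 and Tle4. It stayed 20, with the same genes, without scaling and after quantile normalisation (42.6% of all genes in both). With the mean of all probe sets it was 20 too, with Dll1 lost and Neurog2 gained, and 37.4% of all genes passed. It was 20 with any probe set of a gene, by updated symbols and with the bar from liver, pancreas, pituitary and testis genes (the same genes, where 39.1% of all genes passed). It was 21 without any 1 pool, with Sox10, Neurog2 and Id1 added without pools 1, 2 and 3. Of all genes 45%, 42.9% and 45.6% then passed. Genes with probe sets on different sides of the bar numbered 6 at the 75th percentile. The count of 0 member probe sets with excess spread was 1 with a pseudocount of 50 (Notch2) and 2 at an unadjusted p below 0.05. It was 0 under the other alternatives, those without 1 pool included, where 9 to 30 of all probe sets were called. The members' median SD was 0.127 in the brightest 25% of probe sets, where 13 were tested, and with 1 pool left out from 0.186 to 0.235. The median deviations stayed within the spread between pools of a typical member under all alternatives run. Of the intensities of the 20 genes, 4 moved by more than their SD with the mean of all probe sets (Adam10, Dll1, Notch1 and Sox11), 1 without pool 2 and 1 without pool 3 (both Adam10). The planned comparison with a separate list of unrelated tissues was not run, and the bar from 4 tissues of the list was chosen after the data were seen. No paired analysis was possible because the labels give 1 group and no shared replicate numbers. With 3 arrays, shifts near 2-fold in a single pool lie below what the test detects.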

Other observations

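Other bHLH genes, a list of 51 that the families above do not hold, were measured for 45, and 14 were above the bar in all pools (31.1%), beside 42.6% of all genes. They included the neuronal differentiation factors Neurod1, at 6944, 5129 and 7327 (6467 ± 1174), and Neurod4, at 4849, 5362 and 5052 (5088 ± 258). Neurod1 acts in photoreceptors and amacrine cells and Neurod4 in bipolar and other interneurons.

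The growth regulators Mycn and Mycl were at 1069, 1134 and 990 and at 859, 1035 and 1095. Their partner Max was at 1199, 934 and 864, and the Max-binding repressor gene Mxi1 at 1891, 1861 and 1682. Myc was at the floor in pools 1 and 3 and at 78.3 in pool 2. None of the 21 probe sets tested from this list had excess spread by limma. Myc, Neurod2 and Twist2 are named after their values were seen. Neurod2, at 103, 379 and 337, and above its bar in pool 2 alone, was lowest in pool 1, and its limma adjusted p was 0.102. Twist2, a mesenchymal factor, was at 315, 157 and 588, lowest in pool 2 and above its bar in pool 3 alone, with a limma adjusted p of 0.0796.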
